A study of Mus musculus with 22 samples.

Results

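Whole blood of transgenic SCA3 mice was compared with blood of wild-type mice at 17.5 months of age, across the 9850 genes of the deposited count table. The comparison used 11 of the 22 blood samples of the series, 6 wild-type and 5 SCA3, and the other 11 were taken at 9 months and entered the fit to estimate the spread between mice. Spinocerebellar ataxia type 3 (SCA3) is caused by an expanded CAG repeat in ATXN3, and the question was whether blood carries transcript differences that could serve as markers of the disease. The SCA3 mice were of the MJD84.2 line, hemizygous for the full human ATXN3 gene with an expanded repeat under its own promoter, which is active throughout the body. They also kept their own Atxn3 genes, so that the model adds a human gene to a mouse that still makes its own ataxin-3. The controls were C57BL/6 wild-type mice. Only males were used, none was treated, and all had gone through beamwalk and rotarod testing. The labels give 75 to 77 weeks of age for the wild-type and 74 to 77 weeks for the SCA3 samples. Blood came from a tail cut, globin transcripts were depleted, and poly-A libraries were made without marking the strand. At 17.5 months each sample came from a different mouse. Going by mouse number, 5 of the wild-type mice and 2 of the SCA3 mice had also given blood at 9 months. The fit had no term for the mouse and took these repeat samples as independent. Its p-values therefore describe a spread between mice of a single line that pools both ages and counts these mice at each age.

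Ataxin-3 is a deubiquitinating enzyme that trims ubiquitin chains and works with the proteasome, the chaperone VCP and the autophagy machinery. With an expanded glutamine tract it misfolds and aggregates, mainly in neurons of the brainstem and cerebellum. Blood is easily sampled and expresses ataxin-3, but its transcripts come from a mixture of neutrophils, monocytes, lymphocytes, platelets and young red cells. A difference in whole blood can therefore lie in the number of cells of a type or in the RNA that each cell makes, and these cannot be told apart here.

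Totals at 17.5 months lay between 27545976 and 44390286 counts. The RNA integrity number (RIN, 10 for intact RNA) was 6.2 to 7.1 in wild-type and 5.2 to 7.2 in SCA3 mice, and only SCA3 replicates 3 and 4 were under 6. Neither totals nor RIN differed beyond the spread between mice (two-sided exact permutation test of 6 against 5 mice, p = 0.134 and p = 0.19), but without SCA3 replicate 1 both were lower in SCA3 mice (exact p = 0.0238 and 0.0429). The GC content of the transcripts on which reads fell, weighted by their counts, averaged 50.1% ± 0.56 (SD, n = 6) in the wild-type group and 49.1% ± 0.27 (SD, n = 5) in the SCA3 group (p = 0.0108, exact permutation test). Library numbers in the labels run group by group, so any effect of handling order cannot be told apart from genotype. For this reason each count was corrected for the GC content of its transcript in its sample. Values below are GC-corrected log2 CPM (counts scaled to a common library size), called log2 values, and fold changes are SCA3 minus wild type on the log2 scale. Without the correction, the median fold change was 0.37 in the 20% of genes lowest in GC content and -0.40 in the 20% highest, and with it -0.05 and -0.04.

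The edgeR quasi-likelihood test called 4 of 9850 genes (0.0406%) at a Benjamini-Hochberg adjusted p under 0.05. Cited2, Fam122a and Hs3st3b1 rose and Strada fell in SCA3 blood. These calls rest on few mice, since 0 genes were called when any 1 of wild-type replicates 1, 3, 4 and 5 or SCA3 replicates 2, 3 and 4 was left out, while 1192 to 1941 genes then still had an unadjusted p under 0.05. Without SCA3 replicate 1 the count went to 138, 55 higher and 83 lower, without wild-type replicate 2 to 19, and without SCA3 replicate 5 to 2. With RIN as a covariate 0 genes were called (1366 at an unadjusted p under 0.05), and without the 2 SCA3 mice of RIN under 6 also 0 (1160). The likelihood ratio test named in the study's methods called 142 genes (1.44%), 80 higher and 62 lower, with the same correction and with all 4 genes among them. By unadjusted p under 0.05, 651 genes (6.61%) were higher and 1035 (10.5%) lower in SCA3 mice, and the median fold change of all genes was -0.03. By sign alone, 4362 genes had a higher and 5488 a lower value. These shares and counts are the background for the gene groups below. Without GC correction 1775 genes were higher and 2065 lower at an unadjusted p under 0.05. Every SCA3 mouse lay above every wild-type mouse for 130 genes (1.32%) and below for 188 (1.91%).

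The promoters of the called genes are shown because these are the transcripts whose levels passed the test. Each runs from 250 bases before to 50 after the RefSeq transcription start, in the direction of transcription, on GRCm38.p6. Cited2 is at chr10:17722978-17723277 on the plus strand, Hs3st3b1 at chr11:63922235-63922534, Strada at chr11:106193554-106193853 and Fam122a at chr19:24477425-24477724, all on the minus strand. Capitals mark the letters TGACG (the half-site of CREB factors), TGTGGT (bound by RUNX factors) and ACGTG (the core of the hypoxia response element), searched on both strands.
Cited2: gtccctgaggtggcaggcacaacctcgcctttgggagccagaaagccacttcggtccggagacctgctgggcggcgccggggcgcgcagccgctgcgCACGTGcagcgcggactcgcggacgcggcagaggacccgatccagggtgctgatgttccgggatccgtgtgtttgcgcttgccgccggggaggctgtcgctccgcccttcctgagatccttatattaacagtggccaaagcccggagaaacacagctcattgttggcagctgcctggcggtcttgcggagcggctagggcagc
Fam122a: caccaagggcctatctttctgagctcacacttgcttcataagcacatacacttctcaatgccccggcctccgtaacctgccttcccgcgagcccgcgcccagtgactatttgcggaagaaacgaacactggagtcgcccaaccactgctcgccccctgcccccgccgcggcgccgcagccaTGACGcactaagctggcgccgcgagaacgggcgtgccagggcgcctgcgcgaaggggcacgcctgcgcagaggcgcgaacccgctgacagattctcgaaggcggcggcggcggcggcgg
Hs3st3b1: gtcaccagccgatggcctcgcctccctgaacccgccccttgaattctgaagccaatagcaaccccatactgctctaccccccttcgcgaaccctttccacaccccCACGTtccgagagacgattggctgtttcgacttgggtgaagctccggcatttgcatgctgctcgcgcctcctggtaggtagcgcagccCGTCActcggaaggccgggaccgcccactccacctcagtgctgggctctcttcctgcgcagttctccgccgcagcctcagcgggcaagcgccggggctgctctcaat
Strada: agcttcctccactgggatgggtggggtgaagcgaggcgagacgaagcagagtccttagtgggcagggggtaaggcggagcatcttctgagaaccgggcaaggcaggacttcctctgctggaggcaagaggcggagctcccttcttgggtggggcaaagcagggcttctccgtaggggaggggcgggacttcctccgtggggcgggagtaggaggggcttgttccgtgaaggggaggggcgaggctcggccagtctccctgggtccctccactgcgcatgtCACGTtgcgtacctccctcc
In the Cited2 promoter both matches are the same 6 letters read on either strand, a palindrome that holds ACGTG each way. GC content of the 4 promoters was 63.7% to 67.3%, against a median of 52.7% over 27025 promoters of 300 bases in the RefSeq table. ACGTG stood in 19.5% of those promoters, TGACG in 20.7% and TGTGGT in 17.0%. The 27025 promoters were not limited to the 9850 genes measured in blood. They therefore do not show what is usual among the measured genes, in GC content or in motifs. Among the 12 higher genes with the smallest p, ACGTG was found in 3 promoters (Cited2, Hs3st3b1 and Tob1), TGACG in 4 (Fam122a, Frat2, Hs3st3b1 and Tob1) and TGTGGT in 1 (Runx2). Of the 12 lower genes 8 had a promoter in the table, and 3 of these held ACGTG (Cog5, Pdia6 and Strada), 3 TGACG (Cog5, Lrrc40 and Mrps17) and 1 TGTGGT (Mrps17). A match describes letters only and shows no binding.

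Cited2, a transcriptional coregulator that competes with hypoxia-inducible factor for the coactivators CBP and p300, had the smallest p (chromosome 10, 17723228 to 17725674). Its log2 values were 4.68 to 4.85 in wild-type mice, with a median of 4.83. The SCA3 mice were at 5.47, 5.59, 5.40, 5.36 and 5.27, all above the wild-type mice. The fold change was 0.61 on the log2 scale (SE 0.10, Benjamini-Hochberg adjusted p = 0.0211 in the edgeR quasi-likelihood test), or 1.53-fold. Wild-type replicate 2 was lowest, at 4.68, apart from the others at 4.81 to 4.85. The fold change stayed between 0.57 and 0.65 with any mouse left out, with adjusted p from 0.0199 to 0.0734, and its adjusted p over the other alternatives ran from 0.00011 to 0.139.

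Fam122a encodes an inhibitor of the phosphatase PP2A (chromosome 19, 24475779 to 24477474). Wild-type mice had log2 values of 2.76 to 3.59 (median 3.26). SCA3 mice had 4.00, 4.39, 4.31, 4.35 and 3.91, so that the groups did not overlap. It rose by 0.98 (SE 0.17, adjusted p = 0.0422, quasi-likelihood test), or 1.97-fold, with adjusted p from 0.0196 to 0.135 with a mouse left out. Its transcript is GC-rich, at 59.4%, and the fold change without GC correction was 0.55.

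Hs3st3b1 encodes an enzyme that adds a 3-O-sulfate to heparan sulfate (chromosome 11, 63884693 to 63922284). Wild-type mice lay between 2.06 and 3.06 (median 2.82), and SCA3 mice were at 3.72, 3.69, 3.71, 3.59 and 4.03. Again every SCA3 mouse was above every wild-type mouse. The gene rose by 1.01 (SE 0.18, adjusted p = 0.0422, quasi-likelihood test), or 2.01-fold, and without GC correction by 0.93. With a mouse left out the adjusted p ran from 0.025 to 0.158.

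Strada, a pseudokinase that activates the tumour suppressor kinase LKB1, was the called gene that fell (chromosome 11, 106162974 to 106193634). Wild-type mice had log2 values of 4.98 to 5.98 (median 5.24). SCA3 mice had 4.998, 4.25, 4.14, 4.14 and 4.30, and replicate 1 alone reached into the wild-type range. The fold change was -0.98 (SE 0.18, adjusted p = 0.0422, quasi-likelihood test), a level 1.97-fold lower, and -0.50 without GC correction. With a mouse left out the adjusted p ran from 0.00456 to 0.158. Exons of Strada share 144 bases with Gm25556 on the same strand, so reads there cannot be assigned to either.

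**Figure D1:**
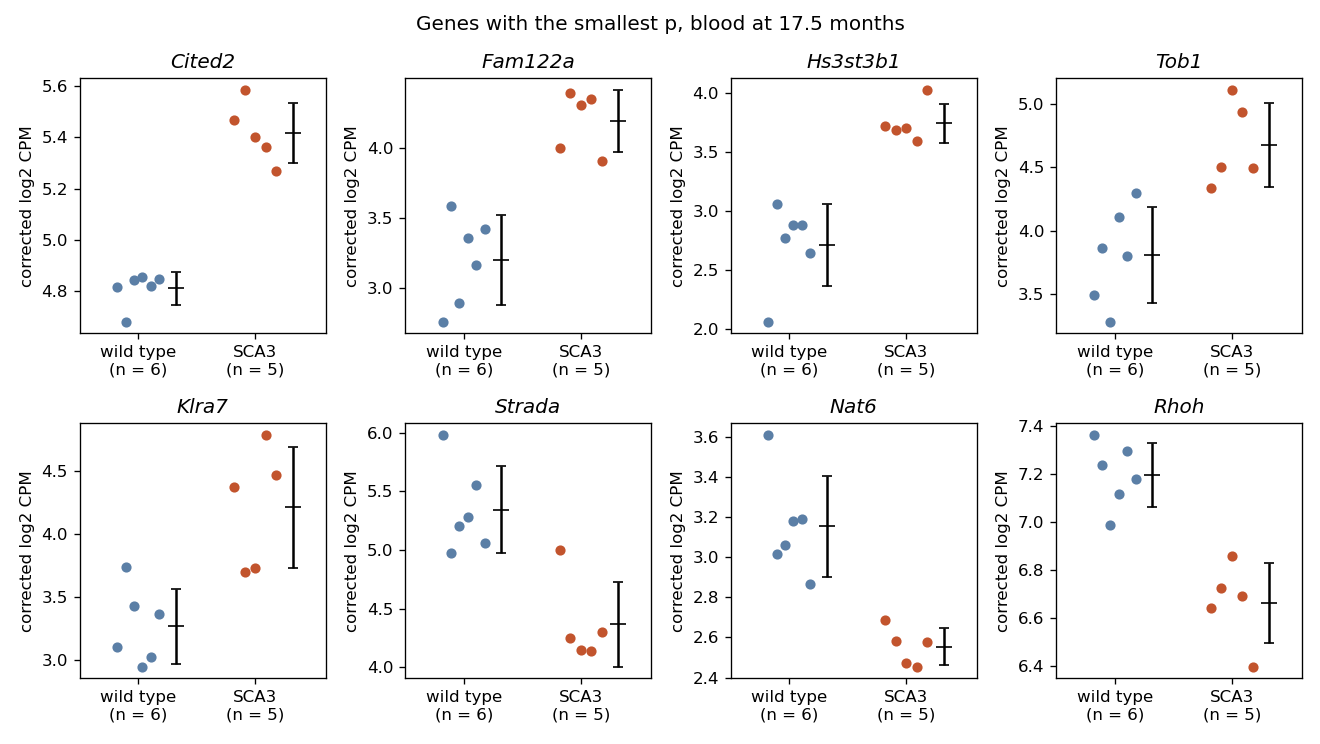
GC-corrected log2 CPM in each mouse for the 5 higher genes (Cited2 to Klra7) and the 3 lower genes (Strada to Rhoh) with the smallest p, with wild-type mice in blue and SCA3 mice in orange. Bars give mean and SD for n = 6 and n = 5. Cited2 in wild-type mice spans 4.68 to 4.85, all below the SCA3 mice, whereas 1 SCA3 mouse overlaps the wild-type mice for Strada.

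The mouse Atxn3 gene did not differ beyond the spread between mice. Its log2 values were 5.22 to 5.46 in wild-type mice (median 5.30) and 5.27, 5.39, 5.37, 5.46 and 5.30 in SCA3 mice. The fold change was 0.03 (SE 0.07, adjusted p = 0.867, quasi-likelihood test). Without GC correction it was 0.48, with an adjusted p of 0.0078 in the same test. Its transcript has a low GC content of 40.6%. Reads of the human transgene were not counted separately in the table, so its level is not analysed here. Whether some of its reads were assigned to the mouse gene was not tested.

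The next genes by p had adjusted p of 0.0625 to 0.0683 in the quasi-likelihood test and were not called. Among those higher in SCA3 mice, Tob1, an antiproliferative factor that keeps T cells quiescent, was at 3.28 to 4.29 in wild-type mice (median 3.83) and at 4.34, 4.50, 5.11, 4.93 and 4.49 in SCA3 mice. The groups for Tob1 did not overlap, and the fold change was 0.86 (SE 0.17). Reck, a membrane inhibitor of matrix metalloproteinases, was at 1.29 to 2.08 (median 1.78) against 2.84, 2.35, 2.50, 2.84 and 3.35, a difference of 1.06 (SE 0.22). With a mean of 5.02 CPM at 17.5 months, Reck is near the table's minimum of 4 CPM. Whether Reck passed this minimum only through the SCA3 mice was not tested, so its difference is no independent support. Nt5e, the ectonucleotidase CD73 that makes adenosine, was at 3.21 to 4.33 (median 3.98) against 4.46, 4.70, 4.52, 4.77 and 5.20. Nt5e differed by 0.83 (SE 0.17) and without overlap. Runx2, a transcription factor of bone that is also made in lymphocytes, was at 3.28 to 4.19 (median 3.58) against 4.40, 4.77, 4.28, 4.08 and 4.37. Its difference was 0.76 (SE 0.16), and 1 SCA3 mouse lay within the wild-type range.

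Klk8, a secreted serine protease, differed by 1.11 (SE 0.22), from 2.98 to 4.13 in wild-type to 4.46 to 5.23 in SCA3 mice. Hcst, the adaptor DAP10 of activating NK receptors, was at 4.87 to 5.39 against 5.52 to 5.88 and differed by 0.61 (SE 0.13). Neither gene overlapped between groups. Tmem120a differed by 0.45 (SE 0.09) and Frat2, an inhibitor of GSK3, by 0.77 (SE 0.16), but without GC correction these values were 0.04 and 0.30. Klk8 overlaps 2310002F09Rik by 369 exon bases and Runx2 overlaps Runx2os1 by 519, both on the opposite strand, and without strand their reads cannot be told apart.

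Among genes lower in SCA3 mice, Rhoh, a GTPase without GTPase activity that T cells need for receptor signalling, was at 6.99 to 7.36 in wild-type mice (median 7.21). In SCA3 mice it was at 6.64, 6.73, 6.86, 6.69 and 6.40, below every wild-type mouse. Its fold change was -0.53 (SE 0.11), that is 1.44-fold lower. The study reported that qPCR of blood RNA verified the changes of Scrib and Atp13a2. For the other genes tested, Rhoh among them by its primer list, it reported a trend. Its primers for Rhoh are shown because they define the stretch of transcript that the qPCR measured. They enclose 150 bases with a GC content of 52.7%.
Rhoh forward: ttcacgagtcattcgcacac
Rhoh reverse: agtaaggaaacggcaaccag
Pdia6, a disulfide isomerase of the endoplasmic reticulum, was at 6.49 to 6.95 (median 6.73) against 6.17, 6.32, 6.38, 6.29 and 6.00, a difference of -0.48 (SE 0.10) with no overlap. Pdia6 and Atp6v1c2, which lies on the opposite strand, overlap by 50 exon bases.

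Btrc, the substrate receptor of the ubiquitin ligase that degrades beta-catenin and the inhibitor of NF-kB, was at 3.70 to 4.53 in wild-type and 3.02 to 3.59 in SCA3 mice. Its difference was -0.69 (SE 0.15). Sf3b5, a small subunit of the splicing factor SF3B, was at 4.80 to 5.70 against 3.87 to 4.46, a difference of -0.82 (SE 0.18). Map1s, a microtubule protein linked to autophagy, differed by -0.62 (SE 0.14), and Skiv2l, the helicase of the cytoplasmic exosome, by -0.32 (SE 0.07). Both are GC-rich, and without GC correction their fold changes were -1.05 and -0.70. Cog5, of the Golgi tethering complex, differed by -0.60 (SE 0.13), Mrps17, of the mitochondrial ribosome, by -0.40 (SE 0.09), Nat6 by -0.62 (SE 0.13) and Klhl17 by -0.51 (SE 0.11). Lrrc40 differed by -0.43 (SE 0.09), but by 0.03 without GC correction. For each of these lower genes the highest SCA3 mouse was still under the lowest wild-type mouse. Exons of Cog5 and Lrrc40 share bases with Hbp1 and B230334C09Rik on the other strand.

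Neutrophil markers were higher in SCA3 blood than in wild-type blood. Of the 22 measured, 21 had a higher value, 10 with an unadjusted p under 0.05 and 0 lower with such a p, and their median fold change was 0.81 against -0.03 for all genes. None was called. S100a8, a calcium-binding protein that makes up much of the neutrophil cytosol, was at 9.47 to 10.58 in wild-type mice (median 10.04). In SCA3 mice it was at 11.99, 11.36, 10.87, 10.66 and 10.25, and replicate 5 lay within the wild-type range. Ly6g, the surface protein by which mouse neutrophils are sorted, was at 0.74 to 2.44 (median 1.73) against 4.63, 3.14, 2.94, 2.86 and 2.85. The groups did not overlap for Ly6g, and SCA3 replicate 1 stood apart from the other SCA3 mice. The fold change of Ly6g was 1.79 (SE 0.54, adjusted p = 0.12, quasi-likelihood test). Stfa1, a cystatin of neutrophil granules and cytosol, was at 1.37 to 2.35 (median 1.80) against 3.18, 3.89, 3.35, 2.68 and 2.48, without overlap, and differed by 1.34 (SE 0.39). Ly6g and Stfa1 had low counts, with means of 6.96 and 7.15 CPM at 17.5 months. The table keeps genes with a mean of 4 CPM or more. Whether these 2 genes passed it only through the SCA3 mice was not tested, so their lack of overlap is no independent support.

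The difference was smaller but of the same sign in Retnlg (0.72, SE 0.29), S100a9 (0.87, SE 0.46), Cxcr2, the receptor for neutrophil chemokines (0.70, SE 0.40), and Csf3r, the receptor for G-CSF (0.68, SE 0.35). Cd177 was the marker with a lower value, at -0.53 (SE 0.47). The summed CPM of the 5 defining neutrophil markers in the table was 3739 to 6744 in wild-type mice and 16170, 11280, 9714, 7936 and 5853 in SCA3 mice. Only SCA3 replicate 5 lay within the wild-type range. Ngp, Camp and Ltf, which mark immature neutrophils, are not in the table of genes above 4 CPM. Without SCA3 replicate 1 the count of markers with an unadjusted p under 0.05 went from 10 to 6 and the median fold change to 0.57. Without the 2 SCA3 mice of RIN under 6 they were 12 and 1.02.

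Markers of NK and cytotoxic cells were also higher. Of the 21 measured, 20 had a higher value, 12 with an unadjusted p under 0.05, and 0 were lower with such a p. Their median fold change was 0.56. The count was 10 to 14 with any mouse left out. Klra7, an inhibitory receptor of the Ly49 family, was at 2.95 to 3.74 in wild-type mice (median 3.24) and at 4.37, 3.70, 3.73, 4.79 and 4.47 in SCA3 mice, a difference of 0.98 (SE 0.20). The Ly49 genes are close copies of each other, so its reads may be shared with relatives. Klrd1, the CD94 subunit of NKG2 receptors, was at 4.68 to 5.78 (median 5.28) against 6.40, 5.68, 5.83, 6.15 and 6.32, a difference of 0.82 (SE 0.18, adjusted p = 0.0656, quasi-likelihood test). For Klra7 2 SCA3 mice lay within the wild-type range, at 3.70 and 3.73, and for Klrd1 1 mouse. Nkg7, a granule membrane protein, differed by 0.57 (SE 0.16), Klrb1c (NK1.1) by 0.57 (SE 0.29), Ncr1 by 0.43 (SE 0.40) and the granzyme Gzma by 0.29 (SE 0.33). The summed CPM of the 6 defining markers was 175.1 to 612.4 in wild-type and 359.9 to 712.1 in SCA3 mice, ranges that overlap.

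T cell markers had 25 of 28 values higher, 7 with an unadjusted p under 0.05, and 2 lower with such a p. Their median fold change was 0.29. Cd3d, a chain of the T cell receptor complex, was at 5.79 to 6.38 in wild-type mice (median 5.92) and at 6.76, 6.47, 6.77, 6.75 and 7.00 in SCA3 mice, a difference of 0.71 (SE 0.20, adjusted p = 0.102, quasi-likelihood test). Thy1 was at 6.08 to 6.96 (median 6.49) against 7.47, 7.08, 7.08, 7.12 and 7.56, a difference of 0.74 (SE 0.21). In both genes, and in Cd3g (0.68, SE 0.22), the groups did not overlap. Cd8a of cytotoxic T cells differed by 0.56 (SE 0.26), while Cd4 of helper T cells differed the other way, by -0.49 (SE 0.22). Cd3e (0.40, SE 0.22) and Lck (0.20, SE 0.22) lay within the spread between mice. Without the 2 SCA3 mice of RIN under 6, 12 markers were higher and 0 lower at an unadjusted p under 0.05.

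B cell markers had lower values throughout, in 22 of 22, but 3 had an unadjusted p under 0.05. The 3 are 13.6% of the list, against 10.5% of all genes. The median fold change was -0.36. Fcer2a, the low-affinity IgE receptor CD23, was at 8.03 to 9.33 in wild-type mice (median 8.84) and at 8.81, 8.17, 8.56, 7.96 and 7.81 in SCA3 mice, a difference of -0.54 (SE 0.25). The groups overlapped. Cd79a (-0.43, SE 0.26), Cd79b (-0.37, SE 0.28), Ms4a1 (-0.41, SE 0.25), Ralgps2 (-0.44, SE 0.19) and the B cell master factor Pax5 (-0.68, SE 0.37) all leaned the same way. Without GC correction 18 of the 22 were lower, 7 at an unadjusted p under 0.05, and Ms4a1 was at 0.15. The count of 3 went to 0 without wild-type replicate 5 or 6 or SCA3 replicate 4 or 5, to 1 without SCA3 replicate 2, to 6 without SCA3 replicate 3 and to 9 without wild-type replicate 3. With RIN as a covariate the count was 5, and without the 2 SCA3 mice of RIN under 6 it was 8. Summed B cell markers were at 2546 to 6189 CPM in wild-type and 2410 to 4495 CPM in SCA3 mice.

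Genes of antigen presentation, which B cells and monocytes express at high levels, were lower in 22 of 24, with 3 lower and 1 higher at an unadjusted p under 0.05 and a median of -0.23. The 3 are 12.5% of the list, near the 10.5% of all genes. With RIN as a covariate 1 was lower and 0 higher at such a p. Without GC correction 0 were higher and 14 lower at such a p, with a median of -0.40. Ciita, the master activator of MHC class II, differed by -0.43 (SE 0.19), and Tap2, a peptide transporter, by -0.30 (SE 0.10). The class I gene H2-D1 was higher, by 0.36 (SE 0.14), though MHC genes share sequence and their counts are uncertain. B cell markers also had lower values, and their part was not tested. The count of 3 lower genes went to 8 without wild-type replicate 3, to 6 without SCA3 replicate 3, and to 1 without wild-type replicate 1 or 5 or SCA3 replicate 5.

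**Figure D2:**
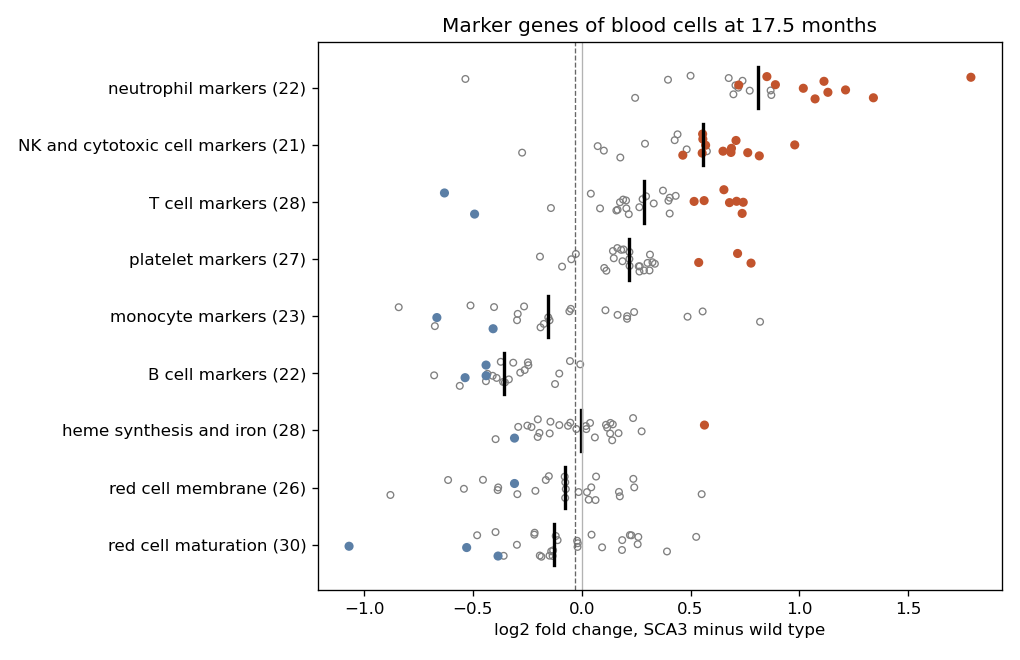
Log2 fold change of each marker gene, SCA3 minus wild type at 17.5 months, by cell type, with the number of genes in the table in parentheses. Filled points have an unadjusted p under 0.05 (orange higher, blue lower), open points do not, black bars are list medians and the dashed line is the median of all genes. The neutrophil, NK and T cell medians are 0.81, 0.56 and 0.29, and that of B cells is -0.36.

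Monocyte markers had 8 values higher and 15 lower, 2 of them lower with an unadjusted p under 0.05, and a median of -0.15. Cx3cr1, the fractalkine receptor of patrolling monocytes, differed by -0.67 (SE 0.30) and Adgre1 (F4/80) by -0.41 (SE 0.16). Ccr2 (-0.67, SE 0.50), Csf1r (-0.40, SE 0.26) and Lyz2 (-0.30, SE 0.33) lay within the spread, and Cd14 and Cd300ld were at 0.82 (SE 0.47) and 0.56 (SE 0.31). The 2 lower monocyte markers are 8.70% of the list, against 10.5% of all genes. Without GC correction the monocyte median was 0.01. With RIN as a covariate 1 monocyte marker was higher and 0 lower at an unadjusted p under 0.05 (median 0.01). Without the 2 SCA3 mice of RIN under 6, 0 were higher and 0 lower at such a p (median 0.0008). Platelet markers were higher in 23 of 27, 3 with an unadjusted p under 0.05, with a median of 0.22. Without GC correction 17 platelet markers were higher and 10 lower, with a median of 0.10. Gng11, a G protein subunit of platelets, differed by 0.72 (SE 0.27) and Thbs1, thrombospondin of platelet granules, by 0.78 (SE 0.32), while Pf4 differed by 0.27 (SE 0.18). Wild-type replicate 3 had summed platelet markers of 13120 CPM, against 5582 to 7016 CPM in the other wild-type mice. Without it 5 platelet markers passed an unadjusted p of 0.05, and without SCA3 replicates 3, 2, 4 and 5 the counts were 6, 1, 1 and 1.

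Few genes of red cells passed an unadjusted p of 0.05. Of the genes for heme synthesis and iron 14 were higher and 14 lower (1 and 1 with an unadjusted p under 0.05), with a median of 0.00. Of those for the red cell membrane 10 were higher and 16 lower (0 and 1), and of those for red cell maturation 10 and 20 (0 and 3). The 3 went to 1 without any 1 of wild-type replicates 1, 2 and 3 or SCA3 replicates 2, 3 and 4. Without GC correction 7 of the heme and iron genes were higher and 21 lower, with a median of -0.13. At an unadjusted p under 0.05 they were then 4 and 2. Slc40a1, the iron exporter ferroportin, was at 0.56 (SE 0.27) and Add1, a membrane skeleton protein, at -0.31 (SE 0.12). Bcl11a, which silences fetal globin and is also needed by B cells, was at -0.53 (SE 0.15) without overlap between the groups, and Cbfa2t3 at -0.38 (SE 0.18). Summed markers of red cell precursors, not corrected for GC content, were 29430 to 89340 CPM in wild-type mice (median 78810). In SCA3 mice they were 43470 to 65000 CPM (median 50740). Wild-type replicates 1 to 4, at 73450 to 89340 CPM, were above every SCA3 mouse, while replicates 5 and 6 were at 52930 and 29430 CPM. Of the 4 markers summed, 2 had higher and 2 lower GC-corrected values in SCA3 mice. The difference in the sums was not tested.

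**Figure D3:**
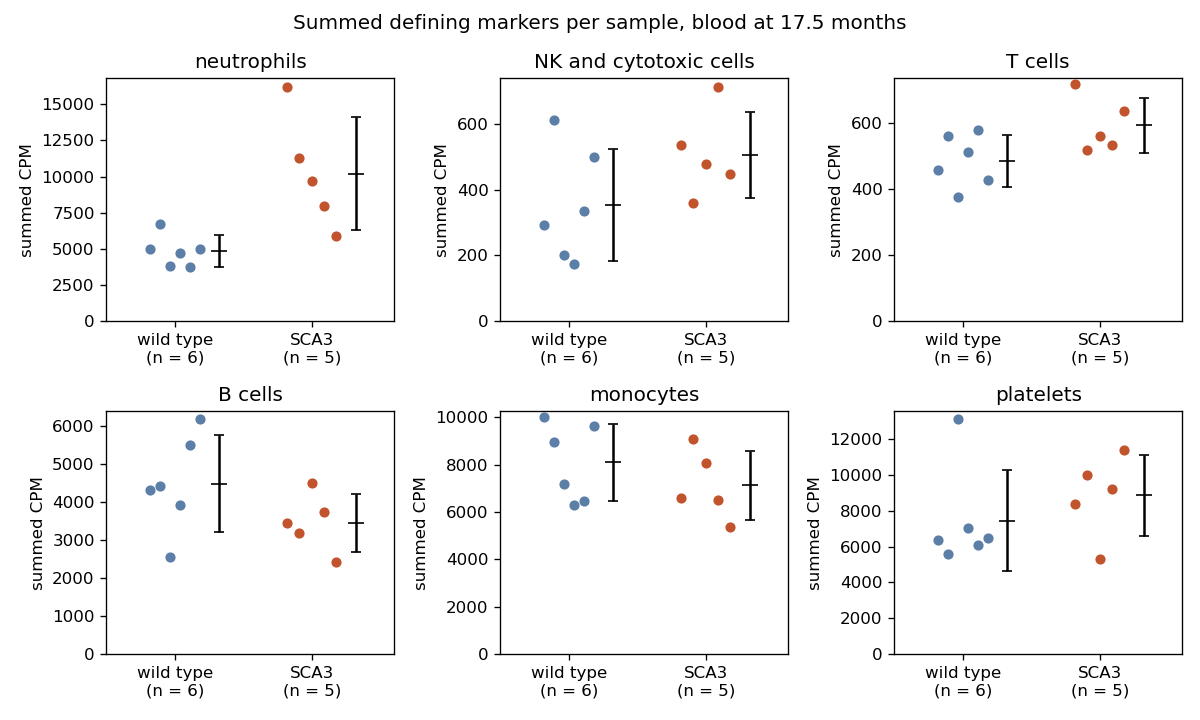
Summed CPM of the defining markers of 6 blood cell types in each mouse at 17.5 months, not corrected for GC content, with wild-type mice in blue and SCA3 mice in orange. Bars give mean and SD for n = 6 and n = 5, and axes start at 0. For neutrophils only 1 SCA3 mouse, at 5853, lies within the wild-type range of 3739 to 6744, while the other panels overlap more widely.

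The tricarboxylic acid cycle oxidises acetyl groups in the mitochondrial matrix and feeds the respiratory chain. Its genes were lower in 21 of 25, with 11 lower and 0 higher at an unadjusted p under 0.05, and a median of -0.17. The 11 genes are 44% of the list, against 10.5% of all genes, and the count stayed between 8 and 12 with any mouse left out. None was called. Fh1, fumarate hydratase, was at 5.70 to 6.18 in wild-type mice (median 5.91) and at 5.52, 5.39, 5.75, 5.62 and 5.43 in SCA3 mice. SCA3 replicate 3 lay above the lowest wild-type mouse, and the fold change was -0.38 (SE 0.10, adjusted p = 0.0891, quasi-likelihood test). Named after their values were seen, Mdh1 (-0.32), Ogdh (-0.45), Cs (-0.26), Idh2 (-0.29) and Sdha (-0.34) were among the other 10. Without GC correction 19 of 25 genes were lower and the median was -0.19.

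The split of respiratory chain genes depended on the correction. In complex I 19 were higher and 16 lower, 2 and 3 of them with an unadjusted p under 0.05, and in complexes II to IV 10 and 15, with 3 and 6. With correction for transcript length besides GC content, complex I had 2 higher and 10 lower at such a p (median -0.09, against 0.05), and complexes II to IV had 3 and 8 (median -0.15, against -0.05). Without GC correction complex I had 5 and 8 (median -0.11). Ndufa5 (0.67, SE 0.20) and Ndufb9 (0.52, SE 0.19) of complex I, Cox5a of cytochrome oxidase (0.84, SE 0.24) and Uqcrb of complex III (0.53, SE 0.17) had higher values. Uqcrc2, also of complex III, differed by -0.33 (SE 0.08), and its groups did not overlap. Of 16 ATP synthase genes 1 was higher and 2 lower at an unadjusted p under 0.05, and the higher one, Atp5j, differed by 0.78 (SE 0.21). Exons of Cox5a, Atp5j and Uqcrc2 share bases with Gm26631, Gabpa and Pdzd9 on the other strand.

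The transfer RNA synthetases, which join amino acids to their transfer RNAs, were lower in 32 of 37, with 13 lower and 1 higher at an unadjusted p under 0.05 and a median of -0.21. Mars, for methionine, differed by -0.35 (SE 0.10) and Tars2, for threonine in mitochondria, by -0.44 (SE 0.13). The exception was Lars2, for leucine in mitochondria, which was at 11.23 ± 0.47 (SD, n = 6) in the wild-type group and at 12.37 ± 0.52 (SD, n = 5) in the SCA3 group without overlap. Its fold change was 1.16 (SE 0.31, adjusted p = 0.0986, quasi-likelihood test). Lars2 also stands in a list of ribosomal and nuclear RNAs, because reads of ribosomal RNA can be assigned to it. Of the 7 in that list 5 were higher, with a median of 0.21, and Lars2 was the 1 with an unadjusted p under 0.05. Whether its reads came from the synthetase transcript was not tested. The count of 13 went to 19 without SCA3 replicate 1, to 8 without SCA3 replicate 2, and to 7 without the 2 SCA3 mice of RIN under 6.

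Cytosolic ribosomal protein genes were higher in 48 of 74, with 13 higher and 3 lower at an unadjusted p under 0.05 and a median of 0.10. Rps6 was at 4.36 to 4.76 in wild-type mice (median 4.54) and at 4.91, 4.88, 5.17, 4.96 and 5.05 in SCA3 mice, without overlap, a difference of 0.45 (SE 0.11, adjusted p = 0.0771, quasi-likelihood test). Rps28 differed by 0.78 (SE 0.21), Rps26 by -0.39 (SE 0.12) and Rps20 by -0.62 (SE 0.20). Ribosomal protein genes have many pseudogenes, and reads with a single alignment may be lost to them, so these counts are uncertain. The lean of the list did not hold throughout. With correction for transcript length besides GC content the counts were 8 higher and 7 lower and the median -0.03. Without the 2 SCA3 mice of RIN under 6 they were 4 and 5 (median -0.04), without SCA3 replicate 3 alone 6 and 5 (median -0.02), and without SCA3 replicate 4, of the lowest RIN, 9 and 3 (median 0.09). With RIN as a covariate they were 6 and 3 (median 0.04). Without wild-type replicate 1 or 5 the higher count was 8, and without wild-type replicate 3 the lower count was 5 and the median 0.00023. Mitochondrial ribosomal proteins had 38 values higher and 37 lower, 6 and 12 with an unadjusted p under 0.05, among them Mrps6 at 0.64 (SE 0.19), Mrpl42 at 0.29 (SE 0.09) and Mrps5 at -0.36 (SE 0.10). The higher count went to 16 without wild-type replicate 6, to 11 without SCA3 replicate 1 and to 3 without SCA3 replicate 3, and the lower count to 7 without SCA3 replicate 2.

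**Figure D4:**
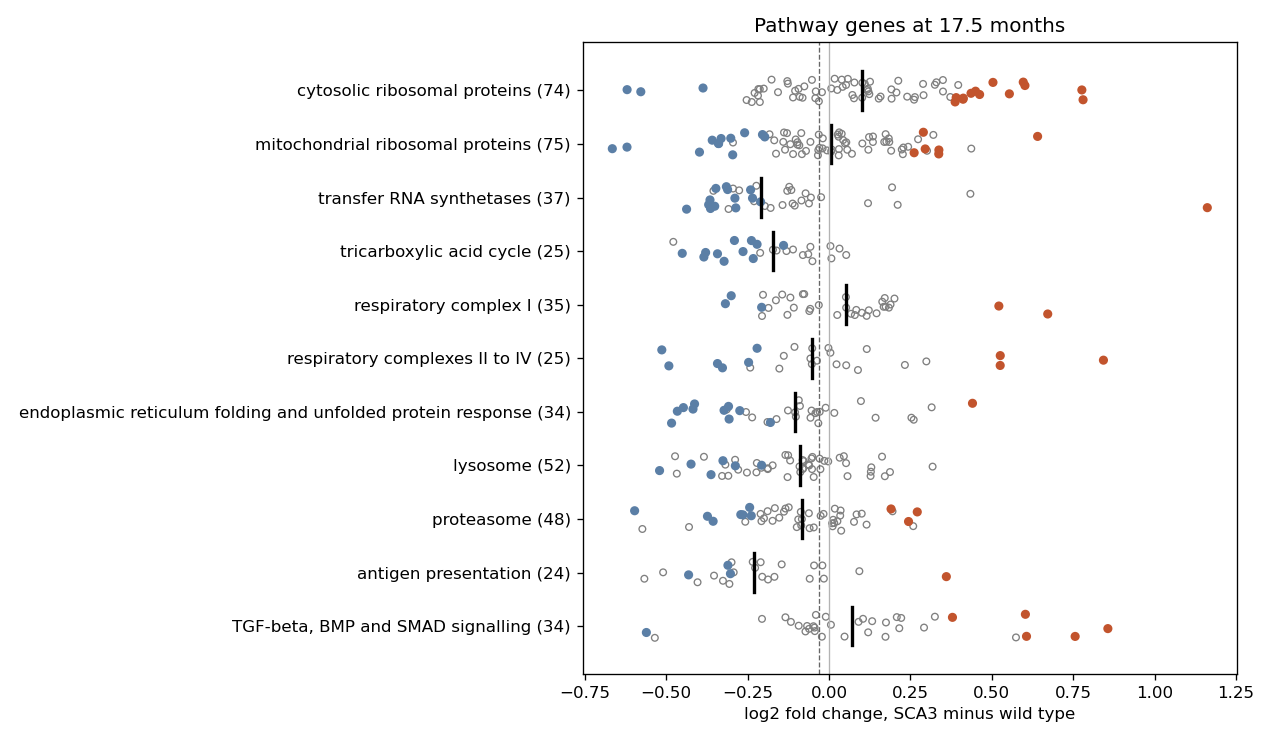
Log2 fold change of each gene, SCA3 minus wild type at 17.5 months, in 11 pathway lists, drawn as for the cell markers (filled points have an unadjusted p under 0.05, black bars are list medians, the dashed line is the median of all genes). The medians of the tricarboxylic acid cycle and the transfer RNA synthetases are -0.17 and -0.21, and Lars2 is the isolated point at 1.16.

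Protein quality control is where ataxin-3 acts. Genes of folding in the endoplasmic reticulum and the unfolded protein response were lower in 27 of 34, with 10 lower and 1 higher at an unadjusted p under 0.05 and a median of -0.10. The 10 were 8 to 11 with any mouse left out. Beside Pdia6 (above), the chaperone Calr (calreticulin) was at 8.57 ± 0.27 (SD, n = 6) in the wild-type group and at 8.11 ± 0.22 (SD, n = 5) in the SCA3 group, and so differed by -0.47 (SE 0.15). The higher gene was Atf4, the transcription factor of the integrated stress response, at 0.44 (SE 0.15). Named after their values were seen, Pdia4 (-0.41), Hyou1 (-0.31), Erp29 (-0.45) and Canx (-0.32) were also lower. Without GC correction 14 of 34 were higher and 20 lower, 6 and 8 at such a p, with a median of -0.07.

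Of 48 proteasome genes 3 were higher and 7 lower at an unadjusted p under 0.05, with a median of -0.08. With correction for transcript length besides GC content the counts were 0 and 15 and the median -0.16, without GC correction 7 and 12, and with RIN as a covariate 0 and 9. Psmd1, a scaffold of the regulatory particle, differed by -0.60 (SE 0.15) and Psmb7, a catalytic subunit, by 0.27 (SE 0.12). The 7 went to 11 without wild-type replicate 2 or 3 or SCA3 replicate 1 or 3, while the 3 went to 0 without wild-type replicate 1 or 3 or SCA3 replicate 3 or 4, and to 1 without wild-type replicate 4 or 5. Among 41 genes of ataxin-3 and its partners 4 were higher and 4 lower at such a p. The ubiquitin-like modifier Nedd8 (0.57, SE 0.16) and the acetyltransferase Kat2b (0.32, SE 0.12) were among the higher. The deacetylases Hdac6 (-0.28, SE 0.12) and Hdac3 (-0.17, SE 0.07) were among the lower. Of 54 cytosolic chaperones 1 was higher and 4 lower at such a p, led by the kinase co-chaperone Cdc37 at -0.51 (SE 0.12). Without GC correction these counts were 11 and 6. The partner counts were 9.76% in each direction, against 6.61% and 10.5% of all genes, and the higher one went to 2 without SCA3 replicate 4, the lower one to 0 without SCA3 replicate 2 and to 2 without wild-type replicate 4 or SCA3 replicate 5. Of 15 genes of polyglutamine diseases and their relatives 1 of each direction had such a p, Atxn1l at 0.30 (SE 0.13) and Htt, the huntingtin gene, at -0.24 (SE 0.11).

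Lysosomal genes were lower in 41 of 52, with a median of -0.09. But 6 (11.5%) were lower at an unadjusted p under 0.05, near the 10.5% of all genes, and 0 higher at such a p. Atp13a2, a lysosomal polyamine transporter whose loss causes parkinsonism, was at 6.46 ± 0.22 (SD, n = 6) in the wild-type group and at 6.05 ± 0.14 (SD, n = 5) in the SCA3 group. It differed by -0.42 (SE 0.11, adjusted p = 0.102, quasi-likelihood test) and by -0.85 without GC correction, its transcript having a GC content of 62.4%. Ctsc, which activates granule proteases, differed by -0.52 (SE 0.19), and by -0.01 without GC correction. The 6 went to 2 without wild-type replicate 1 or 5, to 3 without SCA3 replicate 5 and to 10 without SCA3 replicate 1. Of 50 autophagy genes 1 was higher (Pink1, 0.51, SE 0.21) and 7 lower at an unadjusted p under 0.05. The lower ones were led by Atg16l2 (-0.57, SE 0.17) and Atg4b (-0.20, SE 0.06).

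Scrib, a scaffold of epithelial and lymphocyte polarity, was lower without overlap. Its log2 values were 5.37 to 5.67 in wild-type mice (median 5.53) and 5.14, 5.10, 5.18, 5.04 and 5.11 in SCA3 mice. The difference was -0.42 (SE 0.11, adjusted p = 0.0849, quasi-likelihood test), and -0.87 without GC correction, its transcript having a GC content of 61.2%. Arhgef7 (beta-PIX), a Rac exchange factor that binds Scrib, differed by -0.42 (SE 0.09, adjusted p = 0.069, quasi-likelihood test). They were the 2 of 23 polarity genes with an unadjusted p under 0.05. The study reported that its blood qPCR verified the change of Scrib. The qPCR primers of Scrib enclose 164 bases with a GC content of 55.5%, below that of the whole transcript.
Scrib forward: agctgatcctcacggagaac
Scrib reverse: caggcgattgtctctcaaag
Actb, Vcl and Hprt, the reference genes of the study's blood qPCR, were at -0.38 (SE 0.27), 0.36 (SE 0.27) and -0.10 (SE 0.09), and Hprt was at 0.40 without GC correction.

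Cytokine genes had higher and lower values. Il18r1, the receptor for the interferon-inducing cytokine IL-18 on NK and T cells, was at 5.02 to 5.64 in wild-type mice (median 5.16) and at 6.31, 5.83, 5.71, 5.55 and 6.17 in SCA3 mice. SCA3 replicate 4 overlapped the wild-type mice, and the difference was 0.65 (SE 0.15, adjusted p = 0.077, quasi-likelihood test). In its list of 40 genes of NF-kB and interleukin 1 family signalling 6 were higher and 7 lower at an unadjusted p under 0.05, with the receptor subunit Il1rap at 0.77 (SE 0.30), the inflammasome adaptor Pycard at -0.44 (SE 0.14) and Nfkb1 at -0.36 (SE 0.12). The 6 went to 2 without SCA3 replicate 1 and to 3 without wild-type replicate 5. Of 23 TNF superfamily genes 3 were higher and 3 lower at such a p. The ligands Tnfsf14 (LIGHT) and Tnfsf8 differed by 0.78 (SE 0.23) and 0.77 (SE 0.26), and the receptors Tnfrsf14, which binds LIGHT, and Tnfrsf13b, a receptor of B cells, by -0.48 (SE 0.17) and -0.68 (SE 0.27). Summed neutrophil markers were above the wild-type range in 4 of the 5 SCA3 mice, while the sums of NK, T and B cell markers overlapped between the groups. The part of cell types in these values was not tested.

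Of 35 interferon response genes 3 were higher and 2 lower at an unadjusted p under 0.05. Rtp4 (1.09, SE 0.38) and Ifit3 (0.78, SE 0.35) were higher, while Stat2 (-0.26, SE 0.12), which carries the interferon signal to the nucleus, was lower. The 3 went to 1 without wild-type replicates 2, 4 and 6 or SCA3 replicates 2 and 4, each left out alone, and to 5 without wild-type replicate 1. Of 34 genes of TGF-beta, BMP and SMAD signalling 5 were higher at such a p, 14.7% against 6.61% of all genes, and 1 lower. The list median was 0.07. Tob1 and Runx2 (above) led them, and Id3, an inhibitor of basic helix-loop-helix factors, was the lower one at -0.56 (SE 0.26). Named after their values were seen, Smad7 (0.60), Bmpr1a (0.61) and Id2 (0.38) were the other higher genes. Tob1, Runx2 and Smad7 are also among the top genes that the study reported from these samples. The list was chosen with earlier results known, so its share gives no independent support. The 5 were 4 to 7 with any mouse left out, and 11, with 4 lower, without GC correction.

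Of 40 genes of cyclic AMP, CREB and adrenergic signalling 4 were higher and 1 lower at an unadjusted p under 0.05. Among the higher were the phosphodiesterase Pde4d at 0.66 (SE 0.20) and the phosphatase Dusp1 at 0.91 (SE 0.31), Dusp1 without overlap. The lower one was the CREB coactivator Crtc1 at -0.25 (SE 0.11). Of 26 genes of glycerolipid synthesis and breakdown 3 were higher and 2 lower at such a p. Agpat2 (0.50, SE 0.12, adjusted p = 0.077, quasi-likelihood test) and Dgat2 (0.67, SE 0.28), enzymes on the path to triglycerides, were higher in every SCA3 mouse than in any wild-type mouse, though at 0.11 and 0.33 without GC correction. Daglb, which breaks down diacylglycerol, differed by -0.34 (SE 0.13), and its exons share 2309 bases with Rac1 on the other strand. The higher count went to 1 without wild-type replicate 2 or SCA3 replicate 2 or 4, and without GC correction the counts were 1 and 10. Of 24 cholesterol synthesis genes 0 were higher and 2 lower at an unadjusted p under 0.05. The lower ones were the transcription factor genes Srebf1 (-0.34, SE 0.09) and Srebf2 (-0.37, SE 0.15). The 2 are 8.33% of the list, against 10.5% of all genes. Of 11 genes of tryptophan metabolism and transport 9 were lower, 3 with an unadjusted p under 0.05, among them Wars2 (-0.29, SE 0.11) and Aldh9a1 (-0.23, SE 0.10), but 1 had such a p without wild-type replicate 1 or SCA3 replicate 2 or 4. Of 25 genes of ceramide and sphingolipid metabolism 0 were higher and 2 lower at such a p, with a median of -0.02.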

How the data were processed

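The authors cleaned the reads with Sickle and cutadapt 1.10, aligned them to GRCm38 with STAR 2.3.0e keeping single alignments, and used HTSeq 0.6.1 without strand to count reads in RefSeq genes. The deposited counts are whole numbers, not normalized, for the 9850 genes whose mean was 4 CPM or more. Every one of the 22 columns entered, and 0 were left out. No columns were identical, and replicates differed by 46.1 to 925 times counting error (chi-square per degree of freedom, 25 pairs at 17.5 months), a sum over all genes that says little of the precision of genes near 4 CPM.

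GC content of the longest coding transcript came from GENCODE M21 (9805 genes, and the median for 45 others), coordinates and promoters from RefSeq on GRCm38.p6. Following the CQN method, log2 CPM were regressed on GC content (quantile 0.5, 5 spline knots, genes whose counts averaged 50 or more, quantreg 6.1) and residuals quantile normalized. These offsets entered edgeR 4.0.16 (robust quasi-likelihood test, all 22 samples, 1 coefficient per genotype and age). The steps were tested on simulated data. Printed log2 values have a prior count of 2.

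Members and the 37 gene lists were chosen with earlier results of these data known. The text names the 12 genes with the smallest p in each direction, up to 2 list members in each direction, defining cell markers, Atxn3 and the qPCR genes of the study, and others only where it says so. Groups came from strain and age labels, with 0 mice shared between them. By mouse number 5 wild-type and 2 SCA3 mice were also sampled at 9 months, for which limma 3.58.1 (voom, correlation 0.306 within a mouse) was run. DESeq2 1.42.0 was another alternative. A few list members and 1 list are not reported here.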

Additional observations from a re-analysis of the deposited data

Results flagged for a closer look

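Among 92 groups of 5 or 6 mice examined, 5 held a mouse far from the rest of its group by Dixon's ratio, and chance alone gives about 1 in 20, or 4.6. Cited2 was lowest in wild-type replicate 2, at a log2 value of 4.68 against 4.81 to 4.85 in the other wild-type mice. Sf3b5 was highest in wild-type replicate 1, at 5.70 against 4.80 to 5.11. The summed platelet markers were highest in wild-type replicate 3, at 13120 CPM against 5582 to 7016 CPM. Strada was highest in SCA3 replicate 1, at 4.998 against 4.14 to 4.30. Ly6g was highest in the same mouse, at 4.63 against 2.85 to 3.14.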

How the results depend on the processing

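The number of called genes moved from 4 to 2080 with no GC correction, to 2680 with DESeq2 and no GC correction, to 142 with the likelihood ratio test, to 12 with only the samples at 17.5 months, to 11 with limma voom and the mouse as a random effect, to 106 at an adjusted p under 0.1 and to 0 with RIN as a covariate (1366 genes at an unadjusted p under 0.05). Of 2 alternatives chosen after seeing the data, GC content as the mean over a gene's transcripts gave 2, and leaving out the SCA3 mice of RIN under 6 gave 0 (1160 at an unadjusted p under 0.05). With 1 mouse left out the count ran from 0 to 138. Correction for GC content and length, and genes of at least 10 CPM, gave 3 each. The split of calls went from 3 higher and 1 lower to 813 and 1267 with no GC correction, 1176 and 1504 with DESeq2, 80 and 62 with the likelihood ratio test, and 55 and 83 without SCA3 replicate 1. Apart from the absence of a GC correction in 2 alternatives, and the fewer samples in others, the cause was not tested.

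With 1 mouse left out, the total count per sample, SCA3 minus wild type, ran from -6763289 to -3102445 (p = 0.0238 without SCA3 replicate 1, exact permutation test). The RIN per sample, SCA3 minus wild type, ran from -0.858 to -0.358 (exact permutation p = 0.0429 without the same mouse), and the weighted GC content differed by -1.17 to -0.86 percentage points.

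Reversed values were found for 4 genes among those the text takes by its rule. With no GC correction and with DESeq2, Lrrc40 was at 0.032 and 0.038, Ms4a1 at 0.15 and 0.16 and Hprt at 0.40 and 0.41. Atxn3 was at -0.015 with RIN as a covariate and at -0.0074 without the SCA3 mice of RIN under 6. Mouse numbers pair no wild-type with an SCA3 sample, and replicate numbers only name samples. No paired analysis was possible because the groups compared share no mouse.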
